A study of Mus musculus with 20 samples.

Results

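N6-methyladenosine (m6A) regions that carried a called peak in the heart of each of 10 mice are described here, 5 db/db and 5 db/+. After repeated lines were dropped, the peaks of the 10 hearts were merged wherever their exons shared 1 bp or more of one strand, and a merged region was kept if every heart had a peak in it. Of 15747 merged regions, 2268 (14.4%) met this rule, in 1953 genes. The median shared region covered 639 bp of exon, with lower and upper quartiles of 442 and 929 bp.

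Both groups were C57BL/6 mice, and the tissue was the whole heart. db/db mice are homozygous for a mutation of the leptin receptor gene that removes its long signalling form in every cell, and they become obese and diabetic. db/+ mice carry 1 mutant copy and serve as lean controls. The genotype field of the labels calls them wild type, and the sample titles, which name them db/+, were followed. The labels give no sex or age, and nothing in them says more of the animals than a replicate number. Ddx3y, a gene of chromosome Y, carried a peak in all 10 hearts, which points to male animals. Each heart gave an input library of poly(A) RNA and a library of RNA captured with an m6A antibody, 20 libraries in all. The series set out to map m6A across transcripts in diabetic and healthy hearts. Levels of Lepr, the mutated gene, were not analysed here, and the genotypes rest on the titles.

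m6A is the most abundant internal modification of messenger RNA. It is written by a complex built around METTL3 and METTL14, is most frequent near stop codons and in long exons, and is read by proteins of the YTH family that influence splicing, translation and decay. In MeRIP-seq, fragments bound by the antibody are compared with the input, and the ratio at a peak is its fold enrichment. All folds given here are the authors' own values per peak, and where a heart had several peaks in a region the highest fold was taken. A fold reports how strongly fragments were enriched over that gene's own input and not how many molecules are methylated.

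Bases covered by peaks of all 10 hearts were compared with RefSeq windows around gene starts (GRCm38.p6, 250 bases before to 50 after a start). Stretches of 10 bases or more inside such a window are shown for 7 genes, as sequence that all hearts had in common there. The 7 genes are a selection and not a count of all shared regions that reach a start window. The stretches are printed 5′ to 3′ on the transcribed strand, at most 30 bases each. Capitals mark GGAC, the core of the motif preferred by the m6A writer complex.
Actn2, chr13:12340683-12340694, minus strand: ccgccccaggaa
Ankrd1, chr19:36119795-36119814, minus strand: aagagagaaaaacatagact
Nfe2l1, chr11:96824076-96824098, minus strand: attggctccttgcggcagcctag
Pafah1b1, chr11:74724023-74724052, minus strand: ggatgggagtgaaGGACggaagaggccctg
Ptp4a2, chr4:129820396-129820425, plus strand: gcagcagcaagacGGACtcgtGGACacgcg
Atp5k, chr5:108434352-108434381, minus strand: gcgcgaaggtcacGGACaaaatggtgcccc
Ybx1, chr4:119294464-119294486, minus strand: cgggagcggagagcGGACcccag
GGAC was searched on the transcribed strand only, in the whole stretch available for each gene, and 4 of 7 held it. The share of all 32851 start windows that hold GGAC in as many bases at their downstream end was taken for each. It was 34.4% for the 110 bases of Pafah1b1 and 50.1% for the 188 bases of Ptp4a2. For the 45 bases of Atp5k it was 17.1%, and for the 23 bases of Ybx1 8.89%. For those without a match it was 4.23% (Actn2, 12 bases), 7.64% (Ankrd1, 20 bases) and 8.89% (Nfe2l1, 23 bases). Beyond 50 bases, the end of a window includes bases before the start. A match is a description of the letters and not a measured site, and the sequence under the other shared regions was not analysed here.

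**Figure D1:**
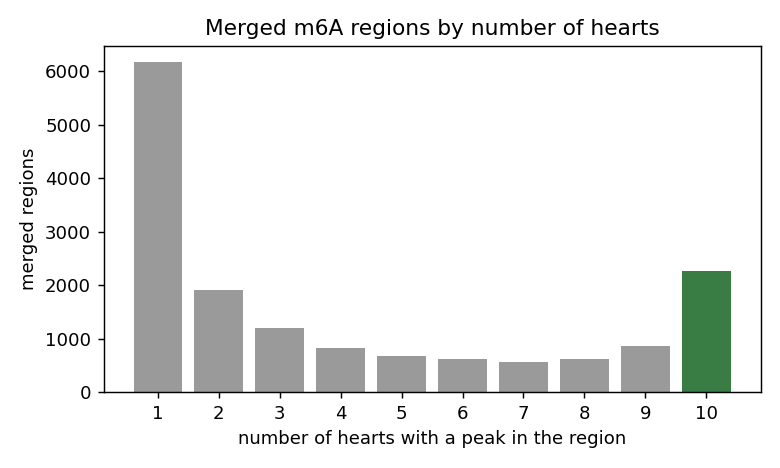
Bars give the number of merged m6A regions (vertical axis) by the number of hearts with a peak in them (horizontal axis, 1 to 10). The counts fall from 6167 regions with a peak in 1 heart to 574 in 7 hearts and rise again to 2268 in all 10, the green bar.

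Presence in all hearts, the value that chose the members, divided the merged regions unevenly and is given as a description. A single heart accounted for 6167 regions (39.2%), and the numbers fell to 574 at 7 hearts before rising to 865 at 9 and 2268 at 10, as the bar chart of regions by number of hearts shows. Just outside the rule, the missing heart was db/db replicate 5 in 462 of the 865 regions (53.4%) and db/+ replicate 2 in 113. The median scaled log2 fold was 1.91 in these regions and 2.04 in the shared ones, on a scale where the lists are made comparable as described below.

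The peak lists differed in length far more than in their number of peaks within shared regions. Distinct peaks ranged from 12385 to 20021 in db/+ hearts and from 8462 to 15607 in db/db hearts. The longest list belonged to db/+ replicate 5 and the shortest to db/db replicate 5. Each heart had between 6242 and 6563 peaks inside the shared regions, which were 32.8% of the list of db/+ replicate 5 and 74.4% of the list of db/db replicate 5. Of all 141836 distinct peaks, 63925 (45.1%) lay in shared regions. The number of reads behind each library is not known from these files, so list length could not be set against depth, whose part in it was not tested. Without db/db replicate 5, the regions found in all remaining hearts would number 2732.

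The hearts did not always place their peaks on the same bases. Some base was covered in all 10 hearts in 2086 shared regions (92.0%), with a median over all shared regions of 185 bp, while 182 regions were joined only through peaks that overlap from heart to heart. The strongest peaks of all 10 hearts shared a base in 1639 regions (72.3%). Most genes held a single shared region (1718 genes), 199 held 2, 27 held 3 and 9 held 4 or more.

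The strongest peak lay in the 3′ untranslated part in 754 shared regions (33.2%), in the coding part in 661 (29.1%), over the stop codon in 653 (28.8%) and in the 5′ untranslated part in 58 (2.56%), by the annotation in the lists. In 11 regions the peak spanned all 3 parts, and 131 had no part shared by most hearts. Peaks running from the 5′ untranslated into the coding part were counted as 5′ untranslated. Those running from the coding into the 3′ untranslated part were counted as over the stop codon. Counted over single peaks, those over a stop codon were 25.5% ± 1.81 (SD, n = 5) of the peaks inside shared regions in db/+ hearts and 10.6% ± 0.849 (SD, n = 5) of the peaks outside them. In db/db hearts the shares were 24.2% ± 3.65 (SD, n = 5) inside and 10.1% ± 2.18 (SD, n = 5) outside, with db/db replicate 5 lowest on both counts at 17.9% and 6.61%. In every one of the 10 hearts the share over stop codons was higher inside than outside, by 14.5 ± 1.58 percentage points (SD over 10 hearts). Peaks in the 3′ untranslated part went the other way, at 25.7% ± 0.365 (SD, n = 5) inside and 47.3% ± 6.76 (SD, n = 5) outside in db/+ hearts and 25.7% ± 1.15 (SD, n = 5) inside and 41.0% ± 1.60 (SD, n = 5) outside in db/db hearts, a difference of -18.4 ± 5.76 percentage points (SD over 10 hearts). The rule makes the inside regions the same in every heart, so agreement over hearts follows in part from the choice, and these shares are a description with no test.

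Titin (Ttn), the giant protein that spans the sarcomere from Z-disc to M-band, held 32 shared regions, 30 of them led in the coding part. Their median folds over the 10 hearts ran from 1.61 at chr2:76803358-76808873 to 5.52 at chr2:76942935-76945849. No other gene came near this number. Tacc2, a centrosome-associated coiled-coil protein, and Ahnak, a giant scaffold beneath the plasma membrane, held 6 each. Cmya5, a scaffold protein at the Z-disc, held 5. In Ahnak the median fold ran from 2.00 in the region of the 3′ untranslated part to 4.22 in a coding region at chr19:9002326-9007299. The coordinates fit GRCm38, although the submitters' processing notes list mm9, and are given as deposited, counted from 1.

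Median folds over the shared regions were similar in most hearts before any scaling. They were 3.92, 3.57, 4.14, 4.48 and 4.07 in db/+ replicates 1 to 5 and 4.01, 4.38, 4.05, 4.03 and 3.00 in db/db replicates 1 to 5. db/db replicate 5 lay below all other hearts, and the genotypes otherwise overlapped. Since a list's overall scale would move every region at once, the log2 folds of each heart were shifted and stretched to the same median and the same median absolute deviation over the shared regions. A difference given below is therefore relative to the other shared regions of the same hearts, and a change common to all of them cannot be seen.

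**Figure D2:**
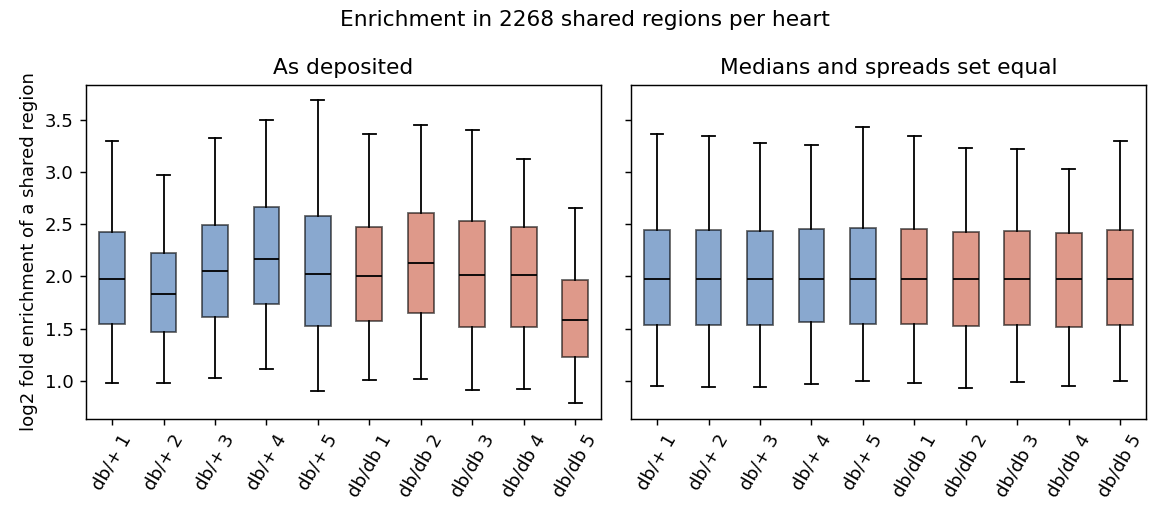
Boxes give the quartiles and median, and whiskers the 5th to 95th percentile, of the log2 fold over 2268 shared regions in each heart (blue db/+, red db/db), as deposited on the left and with medians and spreads set equal on the right. On the left db/db 5 is lowest, with a median fold of 3.00, and on the right the medians are the same by construction.

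The pattern of folds over the regions was kept only in part from heart to heart. Pearson's r of log2 fold over the 2268 regions lay between 0.53 and 0.70 for 10 pairs of db/+ hearts, between 0.58 and 0.76 for 10 pairs of db/db hearts and between 0.48 and 0.71 for 25 pairs across genotypes. The medians were 0.60, 0.67 and 0.63, so the median across genotypes lay between those within db/+ and within db/db. db/+ replicate 5 gave the lowest values, 0.48 to 0.59 with any other heart, and without it the medians were 0.64, 0.67 and 0.64. These are correlations across regions, which share genes, the authors' peak caller and each heart's own input library.

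Apart from 2 regions in predicted genes, which are passed over here, the highest mean scaled log2 folds were in mitochondrial messengers and a few nuclear genes. mt-Nd4 and mt-Nd5, subunits of complex I encoded in the mitochondrial genome, reached 5.24 and 4.89. The fold of mt-Nd4 was 31.8, 17.4, 47.3, 23.5 and 73.7 in db/+ hearts and 12, 184, 241, 20.3 and 16.8 in db/db hearts. Such a spread covers both genotypes, and the difference of 0.36 on the log2 scale had a 95% interval from -1.44 to 2.15. mt-Nd6, encoded on the opposite strand and overlapping mt-Nd5 at its end, had folds of 3.92, 7.19, 5.51, 97.2 and 9.83 in db/+ hearts and 73.0, 65.5, 84.7, 95.3 and 2.79 in db/db hearts. Here 4 db/db hearts and db/+ replicate 4 were high and the remaining hearts low, and the difference of 1.80 ± 0.94 (SE) did not pass the test. Whether reads of these overlapping strands were kept apart was not tested.

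The other regions with the highest levels lay in nuclear genes. Slc27a1, a fatty acid transport protein of the plasma membrane, had folds of 8.54, 18.5, 20.8, 33.8 and 34.4 in db/+ hearts and 83.4, 47.2, 73.0, 112 and 3.58 in db/db hearts, at chr8:71586105-71586708 in its 3′ untranslated part. Its 4 highest values were db/db hearts and its lowest was db/db replicate 5, so the genotypes overlapped, and the 95% interval of the difference ran from -0.86 to 2.58. Ttll1, an enzyme that adds glutamate chains to tubulin, had folds from 18 to 34.4 in db/+ hearts and from 2.12 to 33.2 in db/db hearts. Polr3gl, a subunit of RNA polymerase III, Smco1, a single-pass membrane protein, and Erp29, a chaperone of the endoplasmic reticulum, followed with median folds over all hearts of 14.6, 17.4 and 14.

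At the other end stood abundant messengers of the heart. Ech1, an enzyme of fatty acid oxidation, had the lowest level, with folds from 1.19 to 1.50 in db/+ hearts and from 1.09 to 1.37 in db/db hearts. Mybpc3, cardiac myosin-binding protein C, had a coding region at 1.18 to 1.67 in db/+ and 1.20 to 1.44 in db/db. Ndufb9, a complex I subunit, and Pdha1, the catalytic subunit of pyruvate dehydrogenase, had median folds over all hearts of 1.40 and 1.40. The fold fell with the abundance of the host messenger in each of the 10 hearts. Where the host's mean input level was under 5 FPKM (fragments per unit of transcript length and of library size) the median fold of a heart lay between 3.84 and 5.98 over 311 regions, and where it was 100 FPKM or more it lay between 2.09 and 3.00 over 178 regions. Spearman's rho between fold and input FPKM over 2260 regions was -0.49 to -0.36 over the hearts, and the input library enters both quantities.

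The spread among hearts of 1 genotype also grew with the level. The median within-genotype SD was 0.24 on the log2 scale in the regions below the lower quartile of level and 0.49 in those above the upper quartile. The steadiest regions were in muscle and mitochondrial genes. Lmod2, which nucleates actin filaments at sarcomeres, had scaled values with an SD of 0.06 within genotypes, from folds of 4.47, 4.15, 4.53, 5.48 and 4.98 in db/+ hearts and 4.61, 5.42, 5.07, 4.69 and 3.28 in db/db hearts. A Ttn coding region at chr2:76738597-76739354, Slc25a46, a protein of the outer mitochondrial membrane, and Sucla2, a subunit of succinyl-CoA synthetase, had SDs of 0.06, 0.07 and 0.07. The least steady were mt-Nd6, mt-Nd5, Slc27a1 and mt-Atp6, a subunit of ATP synthase, with SDs of 1.78, 1.42, 1.31 and 1.30.

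Set against this spread, the genotypes were not told apart in any single shared region. limma was fitted to the scaled log2 folds of 4506 regions with a fold in at least 3 hearts of each genotype, and p-values were adjusted over all of them. None of the 2268 shared regions passed an adjusted p of 0.05, as 0% of all regions fitted did, and the smallest adjusted p was 0.834. At an unadjusted p under 0.05 there were 130 shared regions (64 higher and 66 lower in db/db), or 5.73%, the same share as among all regions fitted (5.73%). The 2 genotypes did not overlap in 35 shared regions, 13 higher and 22 lower, which is 1.54% against 2.93% of all regions fitted (1.35% higher and 1.58% lower). The shares are not like for like, since all shared regions have 5 hearts against 5 and other regions have as few as 3 against 3, where groups separate more easily.

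The data set a limit on the size of a difference. The median absolute difference of a shared region was 0.17 on the log2 scale, with a median SE of 0.24, and it was 0.19 over all regions fitted. The 95% interval lay within 1 log2 unit of 0 in 1821 shared regions (80.3%) and within 0.5 in 460. Its median half-width was 0.50, and it was 0.34 below the lower quartile of level and 0.71 above the upper quartile. In the remaining regions the interval does not exclude a doubling or halving relative to the other shared regions. A p that misses the threshold does not show that a region is the same in both genotypes.

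**Figure D3:**
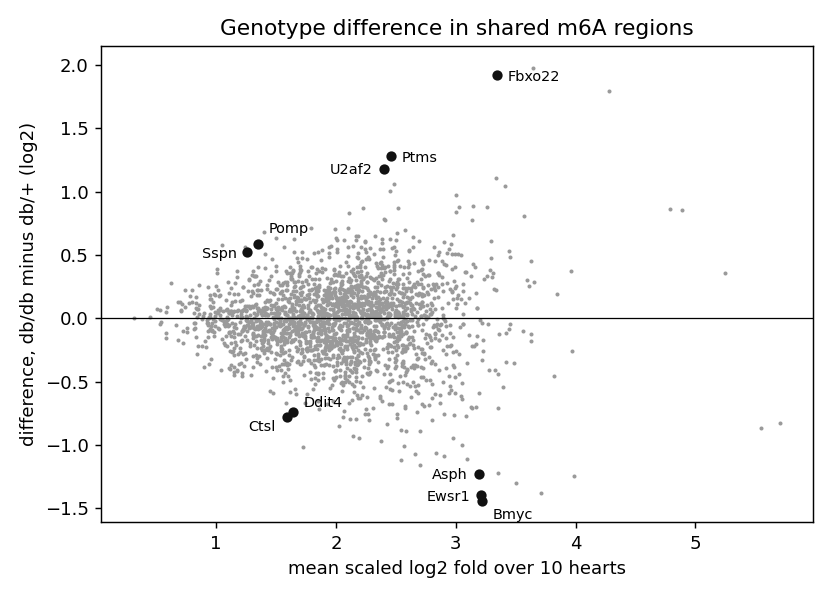
Each point is 1 of 2268 shared regions, with its mean scaled log2 fold over 10 hearts on the horizontal axis and its difference, db/db minus db/+, in log2 units on the vertical axis. The points widen around 0 with rising level, and the black points name the 5 regions of smallest p in each direction, none of which passed the adjusted threshold.

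The 5 regions of smallest p in each direction are given as values, each with an adjusted p of 0.834 by limma. On the higher side, Fbxo22, a substrate-recognition subunit of an SCF ubiquitin ligase, had folds of 4.2, 3.87, 3.44, 12.8 and 6.31 in db/+ hearts and 17.4, 23.4, 58.4, 18.8 and 7.61 in db/db hearts at chr9:55223660-55224433 in the 3′ untranslated part. The scaled values did not overlap, and the difference was 1.92 ± 0.43 (SE), although as deposited db/+ replicate 4 lay above db/db replicate 5. Sspn, sarcospan of the dystrophin complex, had folds of 1.98, 2.14, 2.19, 2.01 and 1.98 against 2.47, 2.49, 2.76, 3.25 and 2.98, at chr6:145962828-145963165 in the 3′ untranslated part. All 5 db/db hearts lay above all 5 db/+ hearts, by 0.52 ± 0.15 (SE). Pomp, a chaperone of proteasome assembly, had folds of 1.63, 2.38, 2.68, 2.16 and 1.89 in db/+ hearts against 2.86, 4.96, 3.12, 2.66 and 2.32 in db/db hearts. As deposited the groups overlapped and after scaling they did not, with a difference of 0.59 ± 0.17 (SE).

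U2af2, a splicing factor that recognises the polypyrimidine tract, had folds from 2.57 to 5.06 in db/+ hearts and from 3.19 to 22.8 in db/db hearts, a difference of 1.18 ± 0.35 (SE). Ptms, the small acidic nuclear protein parathymosin, ran from 2.38 to 5.74 in db/+ hearts and from 4.03 to 25.6 in db/db hearts, a difference of 1.28 ± 0.39 (SE). In both the genotypes overlapped, and the highest db/db value was that of replicate 2.

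On the lower side, Ewsr1, an RNA-binding protein of the FET family, had folds of 11.4, 12, 11.7, 20.7 and 25.4 in db/+ hearts and 6.83, 6.17, 4.51, 4.59 and 5.56 in db/db hearts over its stop codon. The groups did not overlap, and the difference was -1.40 ± 0.34 (SE). Asph, which hydroxylates aspartate and also encodes the calcium-handling protein junctin, had folds of 14.2, 10.9, 15, 17.2 and 13.4 in db/+ hearts against 5.58, 7.59, 9.11, 4.45 and 4.10 in db/db hearts, a difference of -1.23 ± 0.31 (SE). Both are long regions, of 1943 and 1844 bp of exon, that hold several peaks a heart. With the mean of a heart's log2 folds in place of the highest fold, their differences were -0.08 and -0.06, and with the peak of smallest p-value they were -0.99 and -0.53.

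Bmyc, a relative of the Myc transcription factors, had folds of 22.8, 6.89, 18.3, 13.8 and 24.7 in db/+ hearts and 6.01, 5.83, 6.94, 4.29 and 4.83 in db/db hearts over its stop codon, at chr2:25707334-25707721. After scaling the groups did not overlap, and the difference was -1.44 ± 0.36 (SE). Ddit4, a stress- and glucocorticoid-induced inhibitor of mTORC1, had folds of 4.81, 3.58, 3.89, 3.06 and 5.86 against 2.61, 2.37, 2.86, 2.12 and 1.97, a difference of -0.74 ± 0.19 (SE). All db/db folds lay below all db/+ folds as deposited, and after scaling 1 db/db heart reached into the db/+ range. Ctsl, the lysosomal protease cathepsin L, had folds of 4.91, 2.85, 3.23, 3.92 and 6.62 against 2.15, 3.36, 1.92, 2.1 and 1.94, a difference of -0.78 ± 0.21 (SE). db/db replicate 2 stood apart from the other db/db hearts there and overlapped with db/+.

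**Figure D4:**
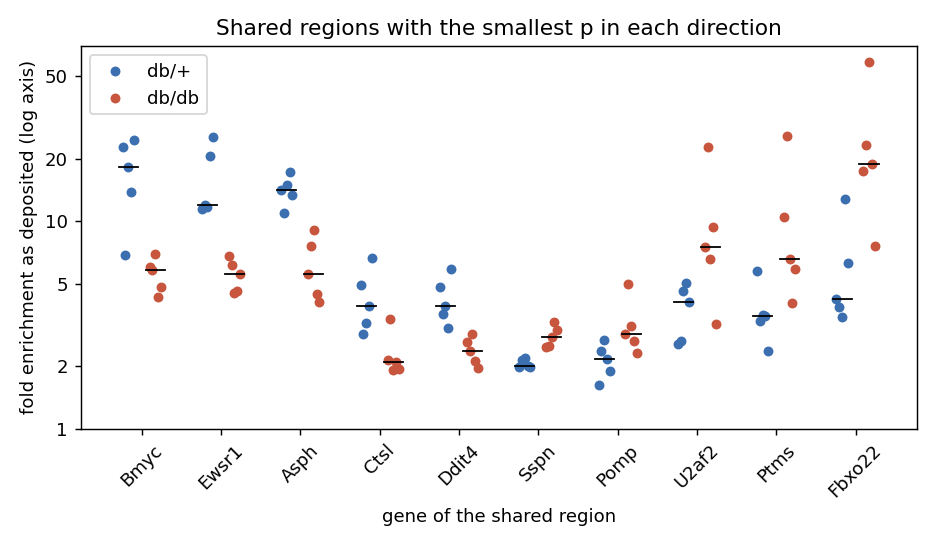
Points give the fold enrichment as deposited (vertical log axis) in each of 5 db/+ hearts (blue) and 5 db/db hearts (red) for 10 shared regions, named by gene and ordered by difference, and black lines mark group medians. In Ewsr1, Asph and Ddit4 all db/db points lie below all db/+ points and in Sspn all lie above, while in U2af2, Ptms, Pomp, Fbxo22, Bmyc and Ctsl the groups overlap.

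Grouped by the part of the transcript with the strongest peak, the differences leaned in different directions, with a heart that stood apart on 1 side. Regions whose strongest peak ran from the 5′ untranslated into the coding part were counted as 5′ untranslated. In the 58 regions of this group, the median difference was 0.25 and 44 were above 0, against 1117 of all 2268 shared regions. The median scaled log2 fold over these regions was 1.98, 1.98, 2.06, 1.96 and 1.61 in db/+ hearts and 2.26, 2.05, 2.22, 2.03 and 1.94 in db/db hearts. db/+ replicate 5 was the lowest heart here and in the coding part, at 1.75, and the highest over the 3′ untranslated part, at 2.11 against 1.83 to 1.93 in the other db/+ hearts and 1.76 to 1.86 in db/db hearts. Without it, the median difference of the 5′ untranslated group was 0.18 with 40 of 58 above 0.

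In the coding group 409 of 661 regions were above 0, with a median of 0.06, and without db/+ replicate 5 there were 345, with a median of 0.02. Over the 3′ untranslated part 464 of 754 regions were below 0, with a median of -0.08, and without db/+ replicate 5 there were 420, with a median of -0.04. Over stop codons the median was -0.03. Regions share hearts, so these counts describe the lean of whole lists and carry no test of their own, and the part of library differences in it was not tested.

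**Figure D5:**
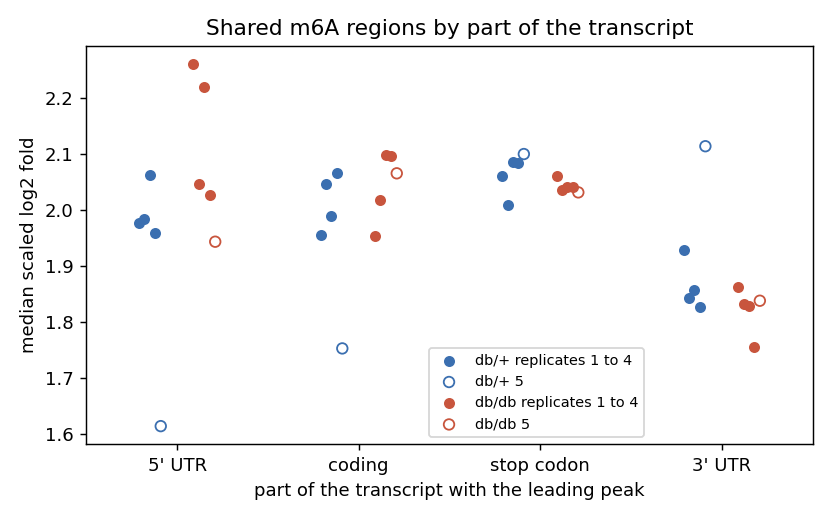
Points give the median scaled log2 fold (vertical axis) of the shared regions led in each part of the transcript (horizontal axis) in each heart, blue for db/+ and red for db/db, with replicate 5 of each genotype as an open circle. db/+ 5 is lowest over the 5′ untranslated part (1.61) and the coding part (1.75) and highest over the 3′ untranslated part (2.11). The medians over the stop codon lie close together. Peaks running from the 5′ untranslated into the coding part count as 5′ untranslated.

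Within the 5′ untranslated group, 8 of 58 regions (13.8%) had an unadjusted p under 0.05, all higher in db/db, against 2.80% of all regions fitted in that direction. None passed the adjusted threshold. The count was 12 without db/db replicate 5 and 5 without db/db replicate 2. It was 4 without db/+ replicate 5, and 3 without any 1 of db/+ replicates 2 and 4 and db/db replicates 1 and 3. The regions lay in Adprhl1, an ADP-ribosylhydrolase-like protein of cardiac muscle, Vegfa, the angiogenic growth factor, Slc39a7, a zinc transporter of the endoplasmic reticulum, Atp2a2, the calcium pump SERCA2, Pik3r1, the regulatory subunit of PI 3-kinase, Mbnl2, a splicing regulator, Tsc22d4 and Naa15, a subunit of an N-terminal acetyltransferase. They were picked by their p-values.

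Adprhl1 had folds of 1.97, 2.36, 2.56, 2.70 and 1.87 in db/+ hearts and 2.92, 3.11, 2.87, 2.47 and 2.85 in db/db hearts, a difference of 0.40 ± 0.14 (SE). Vegfa had folds of 2.59, 1.97, 3.04, 2.83 and 1.53 against 6.42, 3.43, 3.33, 3.61 and 1.94, a difference of 0.63 ± 0.24 (SE). Atp2a2 had folds of 2.99, 2.21, 2.54, 2.70 and 2.19 against 3.78, 2.89, 3.42, 2.88 and 2.32, a difference of 0.33 ± 0.15 (SE). In all 3 genes the groups overlapped as deposited. Actn2, the Z-disc protein alpha-actinin, whose stretch is printed above, went from 1.99 to 3.03 in db/+ hearts and from 1.72 to 4.6 in db/db hearts.

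Genes of contraction and excitation held many shared regions with small differences. Of the 26 genes in the sarcomere and Z-disc list, 23 held 71 shared regions, 32 of them in Ttn. Of its 25 genes tested in input RNA 92% held a shared region, against 18.8% of all genes tested there. Genes with a shared region had a median input level of 13.8 FPKM, against 3.11 in other genes. The shares of genes given for this and other lists were not matched for abundance. None of the 71 regions had an unadjusted p under 0.05. Their median difference was -0.03 against 0.00 over all shared regions, and their levels ran from 0.45 in Mybpc3 to 2.58 in Nebl, a nebulin-related protein that binds thin filaments. The 32 regions of Ttn differed by between -0.35 and 0.36. Of the 24 genes of calcium handling and ion channels, 13 held 22 regions, which is 56.5% of the 23 tested. The median difference of these regions was -0.07. Over all regions fitted, 2.80% were higher and 2.93% lower at an unadjusted p under 0.05. In the calcium list 1 of the 22 regions, the 5′ untranslated one of Atp2a2, was higher at that threshold and none was lower. No region was higher without db/+ replicate 2, 3, 4 or 5 or db/db replicate 1 or 3, and without db/db replicate 5 there was 1 lower as well.

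Fatty acid uptake and oxidation was the list with the most regions of small p on 1 side. Of its 28 genes, 19 (67.9% against 18.8% of all genes tested, not matched for abundance) held 22 shared regions, with a median difference of -0.16. Of these, 17 were below 0, against 1151 of all 2268 shared regions. The lean was similar in calcium handling and ion channels (16 of 22 below 0) and in cardiomyocyte markers (30 of 40). Of those 40 regions, however, 32 lay in Ttn, 25 of them below 0, so that count rests largely on 1 gene. The sarcomere and Z-disc list, which holds the same Ttn regions, had 39 of 71 below 0. Insulin signalling and metabolic regulators each had 6 of 8 above 0. No region of the fatty acid list passed the adjusted threshold. At an unadjusted p under 0.05, 5 were lower (22.7% against 2.93% of all regions fitted). That count was 5 or 6 without db/+ replicate 3 or 4 or db/db replicate 5. It was 3 without db/+ replicate 1 or db/db replicate 1, 3 or 4, and 2 without db/+ replicate 2 or 5 or db/db replicate 2. The median difference was -0.09 without db/+ replicate 5. In the same input libraries, 14 of the list's 28 genes passed the limma test of expression and were higher in db/db, and none was lower, against 1.29% and 1.72% of all genes tested. With single hearts left out the number higher ran from 9, without db/db replicate 3, to 13, and 1 gene was lower without db/+ replicate 5. The input library is also the denominator of the fold, so fold and FPKM of a gene are not independent. Their relation was not tested, here or for the genes below.

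Acot2, a mitochondrial acyl-CoA thioesterase, held 2 of these regions. At chr12:83992983-83993517 its folds were 6.38, 4.35, 7.40, 6.11 and 7.80 in db/+ hearts and 3.87, 3.70, 3.36, 2.85 and 3.76 in db/db hearts. As deposited the groups did not overlap, after scaling db/db replicate 5 rose into the db/+ range, and the difference was -0.75 ± 0.23 (SE). The second region, in the 3′ untranslated part, had a median fold of 3.76 in db/+ and 2.68 in db/db, with a difference of -0.45 ± 0.22 (SE). Input RNA of Acot2 was 32.3 ± 4.85 FPKM in db/+ hearts and 63.8 ± 1.28 FPKM in db/db hearts (SD, n = 5 each), a rise of 0.97 in log2(FPKM + 1) with an adjusted p of 0.000485 by limma, and it passed with any single heart left out.

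Etfdh, which passes electrons from fatty acid oxidation to the respiratory chain, had folds of 4.30, 4.16, 3.15, 2.80 and 5.89 in db/+ hearts against 2.49, 2.54, 1.97, 2.89 and 2.71 in db/db hearts, and its input RNA rose from 86.1 ± 8.87 to 109 ± 6.54 FPKM (SD, n = 5 each; limma adjusted p = 0.0364). Acadl, the long-chain acyl-CoA dehydrogenase, had median folds of 3.6 and 2.75, with input RNA up from 537 ± 28.9 to 664 ± 46.0 FPKM (SD, n = 5 each; limma adjusted p = 0.027). With single hearts left out, Etfdh passed the expression test only without db/+ replicate 1 or db/db replicate 4, where adjusted p was 0.0215 and 0.0422, and reached 0.0919 without db/db replicate 3. Acadl passed only without db/+ replicate 1 or 5 or db/db replicate 4 and reached 0.0744 without db/db replicate 1. Acsl1, which activates long-chain fatty acids, had folds of 2.02, 2.43, 2.26, 2.18 and 3.65 against 1.72, 1.93, 1.76, 1.91 and 1.44 in its 3′ untranslated part, with no overlap, while a second region over its stop codon differed by 0.05. Pdk4, a kinase that inhibits pyruvate dehydrogenase, had median folds of 4.16 and 3.23. The exceptions on the other side included Hadha, the alpha subunit of the trifunctional protein, with a difference of 0.37.

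Over all hosts of shared regions, input RNA and enrichment were set side by side. Of 1940 host genes tested, 77 passed in input RNA (3.97% against 3.01% of all 10344 genes tested), 37 higher (1.91% against 1.29%) and 40 lower (2.06% against 1.72%). Without single hearts, the number higher was 19 without db/+ replicate 3, 21 without db/+ replicate 4, 22 without db/db replicate 1 or 2 and 15 without db/db replicate 3. The number lower was 26 without db/+ replicate 1, 18 without db/+ replicate 3, 21 without db/+ replicate 4, 14 without db/db replicate 1 or 3, 22 without db/db replicate 2 and 20 without db/db replicate 4. Host genes were more abundant than the others, with a median of 13.8 against 3.11 FPKM.

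The 37 genes that rose held 41 shared regions, 28 of them with a difference below 0 and a median of -0.17. The 40 genes that fell held 45, 28 of them above 0, with a median of 0.05. With each heart left out in turn the first median lay between -0.17 and -0.06 and the second between 0.005 and 0.06. Spearman's rho between the difference of a region and that of its host was -0.12 over 2255 regions. The input library is the denominator of the fold and also gives the FPKM, so the quantities are not independent, and no test was made of this relation.

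Among genes that write, bind or read m6A, 5 of the 24 listed held 7 shared regions. That is 25% of the 20 tested in input RNA, against 18.8% of all genes tested there. Of the 7 regions, 1 (14.3%) was lower at an unadjusted p under 0.05, against 2.93% of all regions fitted. Ythdf3, a cytoplasmic reader, had folds of 3.73, 2.94, 7.78, 3.40 and 7.97 in db/+ hearts and 2.46, 3.75, 2.43, 3.21 and 2.39 in db/db hearts, a difference of -0.65 ± 0.27 (SE), with no base covered in all hearts. Ythdc1, the nuclear reader, had a region led in the 5′ untranslated part with folds from 4.43 to 7.98 and from 3.66 to 18.5 and one over the stop codon from 3.37 to 5.06 and from 3.61 to 5.34 in db/+ and db/db hearts. Zc3h13, a scaffold of the writer complex, held 2 coding regions with differences of -0.21 and 0.17. Hnrnpa2b1 and Hnrnpc, RNA-binding proteins linked to m6A in the nucleus, differed by -0.31 and -0.35. No region of the list had an unadjusted p under 0.05 without db/+ replicate 3 or 5 or db/db replicate 1 or 3. None of the 20 list members tested in input RNA passed.

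Of 23 cardiac transcription factors listed, 3 held a shared region, which is 14.3% of the 21 tested in input RNA against 18.8% of all genes tested there. Hand2, needed for the right ventricle, had folds of 6.64, 3.53, 19.2, 5.42 and 4.98 in db/+ hearts and 18.7, 3.90, 4.90, 5.75 and 15.2 in db/db hearts. High values thus occurred in both genotypes. Mef2a, an activator of muscle genes, and Tbx20, a regulator of the adult and developing heart, had median folds of 3.5 and 4.14 in db/+ and of 3.62 and 5.84 in db/db.

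Shares of genes with a shared region in regulatory and signalling lists lay on both sides of that 18.8%. Of 24 insulin signalling genes 7 held 8 regions, 1 of them, the 5′ untranslated region of Pik3r1, at an unadjusted p under 0.05, with folds of 4.22, 2.66, 4.23, 3.04 and 6.79 against 5.66, 5.70, 5.73, 7.81 and 3.62. Over all regions fitted 2.80% were higher at that threshold. No region of the insulin list was at an unadjusted p under 0.05 without db/+ replicate 2, 3 or 4 or db/db replicate 1, 3 or 4. The 3′ untranslated region of Pik3r1 differed by 0.12. Chromatin regulators gave 14 regions in 9 of 28 genes and metabolic regulators 8 in 7 of 22, with none at an unadjusted p under 0.05. In the circadian clock list, 3 of 19 genes held 3 regions. None was lower at an unadjusted p under 0.05 without db/+ replicate 2, 4 or 5 or db/db replicate 1, 2, 4 or 5. With all hearts, 1 was lower (33.3% against 2.93% of all regions fitted). That region, in Nr1d2, a nuclear receptor that represses clock genes, had folds of 7.11, 11.8, 6.17, 12.5 and 59.8 in db/+ hearts and 4.75, 6.41, 12.7, 6.99 and 2.70 in db/db hearts, with the highest and lowest values in replicate 5 of each genotype. In the glucocorticoid response list, 7 of 14 genes held 7 regions. The 1 lower at an unadjusted p under 0.05 (14.3% against 2.93% of all regions fitted) was Pdk4. With single hearts left out, 1 was lower only without db/+ replicate 1 or 4.

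Extracellular matrix genes gave 9 regions in 9 of 30 genes, with Col1a2, a chain of type I collagen, at folds from 2.76 to 3.75 in db/+ and from 1.73 to 3.16 in db/db. Dystrophin and integrin adhesion genes gave 12 regions in 8 of 26, with none at an unadjusted p under 0.05. Bone morphogenetic protein, transforming growth factor and Smad signalling genes gave 2 in 23, and Notch, Wnt and Hippo signalling genes gave 4 in 29, none at an unadjusted p under 0.05 either.

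Whole hearts hold several cell types, and fewer cells of a type and less RNA per cell cannot be told apart in these libraries. All 10 cardiomyocyte markers were in the expression table, with a summed level of 10922 to 13781 FPKM in db/+ hearts and 9836 to 12058 in db/db hearts. The 10 endothelial markers summed to 178 to 215 and 177 to 212 FPKM, and the 10 fibroblast markers to 495 to 699 and 630 to 830. The 10 adipocyte markers summed to 252 to 578 and 256 to 358 FPKM, with db/+ replicate 5 highest in that sum. Fabp4 alone gave 153 to 206 FPKM of it in db/+ hearts and 161 to 199 in db/db hearts, and Adipoq was highest in db/+ replicate 3. Macrophage markers summed to 262 to 556 and 274 to 375, smooth muscle and pericyte markers to 217 to 287 and 249 to 337 and atrial markers to 1402 to 2772 and 1415 to 3430 FPKM.

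Of the 10 cardiomyocyte markers 7 held 40 shared regions, 32 of them in Ttn, with none at an unadjusted p under 0.05. Fabp4, a fatty acid-binding protein of adipocytes and capillary endothelium, had folds of 32.2, 10.9, 15.4, 22.1 and 14.8 in db/+ hearts and 11.3, 9.22, 5.38, 5.03 and 5.85 in db/db hearts, a difference of -1.30 ± 0.41 (SE), with an adjusted p of 0.834 by limma. Its input RNA was 177 ± 24.8 and 183 ± 14.5 FPKM (SD, n = 5 each). Adipoq, which defines adipocytes, ranged from 2.42 to 32.6 FPKM in db/+ hearts and from 1.92 to 16.3 in db/db hearts, and its part in the Fabp4 values was not tested. The 10 adipocyte markers held 2 regions, 1 of them lower at an unadjusted p under 0.05 (50% against 2.93% of all regions fitted). Smooth muscle and pericyte markers held 6 in 5 genes, of which 1 (16.7%) was lower. It was that of Pdgfrb, a receptor of pericytes, with median folds of 7.05 and 4.2. Fibroblast markers held 3 in 3 genes, of which 1 (33.3%), that of Col1a2, was lower. In lists of so few regions, 1 region is a large share. The endothelial (4 regions), macrophage (2) and atrial (4) markers had none at an unadjusted p under 0.05. The Col1a2 call did not hold without any 1 of db/+ replicates 1, 2, 3 and 5 and db/db replicates 1 and 5, and that of Pdgfrb without db/+ replicate 1 or db/db replicate 3. Lists with none had at most 2 such regions when a heart was left out.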

How the data were processed

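Peak lists and an expression table were deposited. Per the file headers, each peak list holds the position, exon blocks, gene, fold (the authors' ratio of antibody-bound to input signal) and p-value of the peaks of 1 heart as the authors called them, 1 list a heart. The FPKM table, deposited by the authors, covers the 10 input libraries. HISAT2 2.1.0, Trimmomatic 0.32, FastQC 0.11.7 and mm9 appear in the submitters' processing notes. Neither the peak caller nor the FPKM program is named there, and depth is unknown, so no count test was run. Low FPKM and low input make a fold less certain, and a fold of a peak is kept only where the caller called it.

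Of 146953 lines, 5117 repeated a position (3.48%) and were dropped, keeping the largest fold. Regions were built in Python 3.11.15 with pandas 2.3.3. Scaled log2 folds (equal median and median absolute deviation over shared regions in each list) were fitted with limma 3.58.1 in R 4.3.3 (lmFit, eBayes with a trend), db/db against db/+ with no covariate, and Benjamini-Hochberg adjustment covered all 4506 regions with a fold in at least 3 hearts a genotype. Input RNA was tested as log2(FPKM + 1), which understates changes of low genes, over the 10344 genes whose mean reached 1 FPKM. Scripts were tested on simulated data. Nothing in the labels says the replicates came from separate cages or days, and p-values measure the spread between these hearts. Gene positions were compared with GRCm38, and 89.9% of 11496 genes found there had a start or end within 50 bp.

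Members and the 21 gene lists were chosen with earlier results of these data known. Named regions are the 5 of smallest p in each direction, the 8 highest and 4 lowest by level, the 4 smallest and 4 largest by spread, up to 3 of smallest p in a list, and all those of the m6A and transcription factor lists, 2 predicted genes among the highest being passed over. A region was set to the part of the transcript that most of its hearts' strongest peaks had. Sequences come from RefSeq start windows (GRCm38.p6), since no genome was used here.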

Additional observations from a re-analysis of the deposited data

Results flagged for a closer look

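A value was picked out where 1 heart lay far from the other 4 of its genotype (Dixon's criterion at 95%). Of 62 groups examined, 7 held such a value, and chance gives about 5% of groups. The list of db/+ replicate 5 held 20021 distinct peaks, far above its group, and that of db/db replicate 5 held 8462, far below. db/db replicate 5 also had a median fold of 3.00 over the shared regions and 74.4% of its peaks inside them. Among the named regions, Ctsl had a fold of 3.36 in db/db replicate 2, the Ttn region at 76738597 had a fold of 2.49 in db/db replicate 5, and mt-Nd6 had a fold of 97.2 in db/+ replicate 4. These folds are as deposited, where db/db replicate 5 had the lowest median of all hearts. After scaling, that Ttn region was among the steadiest. The first 4 values concern the hearts whose omission is given beside the results they touch.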

How the results depend on the processing

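Under 22 alternative settings (other scalings, another summary of a heart's peaks, the limma fit without a trend, a replicate block, other overlaps or fold minimums, peaks limited to bases covered in all hearts, and each heart left out), 0 shared regions passed the adjusted threshold. The smallest adjusted p ranged from 0.147, without a trend, to 0.92, and 92 to 156 regions had an unadjusted p under 0.05, against 130. Of 220 values of the 10 named regions, those of smallest p in each direction, 0 changed sign and 0 passed. These regions were picked by p from the same hearts that the settings reuse, so a kept sign is no independent support. With the mean of a heart's log2 folds, Ewsr1 and Asph shrank to -0.08 and -0.06. Leaving out replicate 5 of both genotypes, and limiting peaks to commonly covered bases, were chosen after seeing the data. The number of shared regions was 1808 with folds of at least 2, 1939 with an overlap of at least 100 bp, and 2281 to 2732 with a heart left out.

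Host genes called in input RNA were less stable. With medians set equal there were 40 higher and 26 lower, and without replicate 5 of both genotypes 42 and 50. With a heart left out there were 15 to 36 higher and 14 to 48 lower. With a replicate block there were 8 higher and 7 lower, and 8 of the fatty acid list higher, and the cause was not tested for any of these. Replicate numbers are shared by the genotypes, and nothing in the labels says whether same-numbered hearts are paired. Correlations of the deviations of same-numbered hearts were 0.13, 0.00, -0.01, 0.11 and 0.05. Of 5 db/+ hearts, 3 correlated best with their own number, and pairing was not tested. The depth of the libraries is unknown, which limits what a missing peak can show.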
